A study of Mus musculus with 2 samples.

Results

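The keratin and identity genes of medullary thymic epithelium were compared between the thymus of Pla2g10-transgenic mice (Pla2g10-Tg/+) and that of littermate controls, both on a C57BL/6 background and 6 months old. The 10 genes were taken by name from the array annotation, where 12 of 41174 probes carry their symbols, Epcam under its older symbol Tacstd1. They are 10 of 27573 genes on the array. RNA from the thymi of 4 mice was pooled per genotype. Both pools were hybridised together on 2 two-colour Agilent arrays with exchanged dyes, so that the transgenic pool carried Cy5 (red) on array 1 and Cy3 (green) on array 2. The labels describe the transgene as overexpressing Pla2g10, which encodes a secreted phospholipase A2. Which promoter drives it was not given in the labels. The labels do not say that the arrays hold separate pools, so each genotype counted as 1 sample. Errors are the SD between 2 arrays, they are technical, and no p-value across animals is given.

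The medulla of the thymus is the region in which developing T cells meet antigens of the rest of the body before they leave. Its epithelial cells build their filaments largely from keratins 5 and 14, while those of the cortex are known for keratins 8 and 18. Mature medullary cells express Aire, a regulator that switches on genes otherwise restricted to other tissues, and carry costimulatory molecules that test developing T cells. The transcription factor p63, from Trp63, maintains stratified epithelia and the epithelium of the thymus.

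Krt5 was higher in the transgenic pool, at 1.60-fold of the control. Trp63 stood at 1.46-fold, Reg3g at 1.35-fold, Krt14 at 1.26-fold, Aire at 1.14-fold and Epcam at 1.06-fold, and none of these 5 passed the mark of a log2 ratio of 0.5 on each array. The probes of Krt15, Cldn3, Cldn4 and Cd80 were well above background in 0 of 4 channels, so no ratio is given for them. Krt5 was the only one of the 10 genes to pass it, as did 27 of 9397 tested genes, 0.287%, in the same direction. None of the 6 measured genes was lower by as much, as 0.0532% of tested genes were. None was 2-fold higher, as 0.0319% were. The count at 0.5 depends on the processing. It was 3, with Trp63 and Reg3g added, when the offset was left out, in the scanner software's log ratios and on array 1 alone, and 0 when arrays were centred on their median in place of loess normalisation.

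The array signals were low. Spots well above background, as flagged by the scanner software, made up 34.1% of transcript spots for the transgenic pool and 29.0% for the control pool on array 1. On array 2 they made up 28.5% for the transgenic pool and 33.2% for the control pool. Red gave the larger share on both arrays. The only Pla2g10 probe was well above background in 0 of 4 channels, with signals of 35.2 and 43.0 units in the transgenic pool and 45.1 and 39.5 units in the control pool, and it does not check the labels. Of 10 thymocyte markers 9 were tested, so the tissue carries the defining transcripts of thymus.

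**Figure D1:**
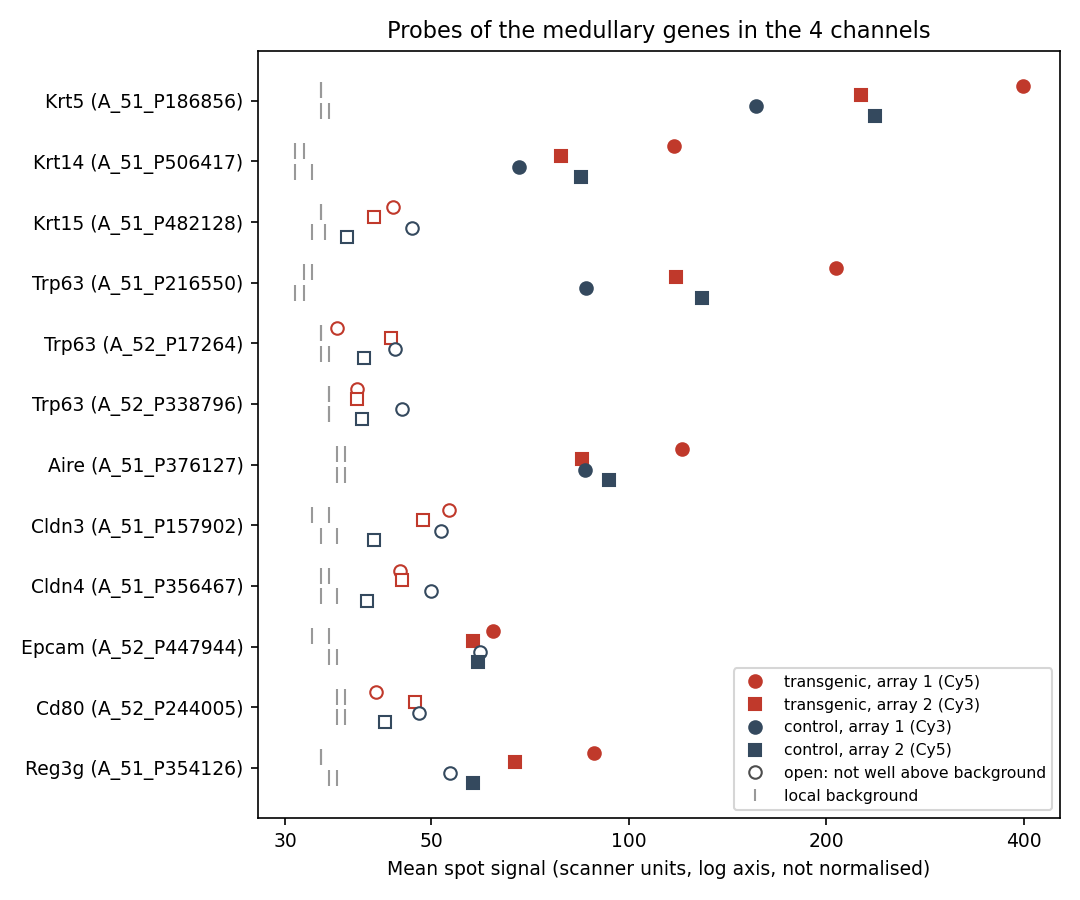
Mean spot signal of each of the 12 probes in scanner units on a log axis, before normalisation, with the transgenic pool above the control pool, circles for array 1 and squares for array 2. Filled symbols are well above background, open ones are not, and grey ticks are the local background. The probes of Krt5, Krt14 and Aire and 1 of the 3 Trp63 probes are filled in all 4 channels, and the 6 dim probes lie between 36.0 and 53.2 units over backgrounds of 33.0 to 37.0 units.

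Krt5 encodes keratin 5, the type II keratin of basal epithelial cells and the filament partner of keratin 14. Its probe (A_51_P186856, transcript NM_027011) lies at chr15:101535117-101535176 on the minus strand of mm8. Local background was 34.0 to 35.0 units, and above it the signal was 365 and 191 units in the transgenic pool on arrays 1 and 2, against 121 and 203 units in the control pool. Before normalisation, then, the control pool read slightly higher on array 2, where it carried the red dye. After background correction with an offset of 50 units and loess within each array, the level was 323 and 322 units in the transgenic pool, against 193 and 211 units in the control pool. Both transgenic values lay above both control values. The log2 ratio was 0.74 on array 1 and 0.61 on array 2, a mean of 0.68 ± 0.10, which ranked 17 from the top of 9397 genes. The scanner software's own log ratios were 0.92 ± 0.22 and 0.84 ± 0.22, where the error is that of its error model on each array.

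The RefSeq promoter of Krt5, from 250 bases before to 50 bases after the gene's start, is shown because this gene had the highest ratio of the measured genes in the setting reported and because p63 is itself among them. It lies at chr15:101712856-101713155 on the minus strand of GRCm38.p6 and is printed 5′ to 3′ along the gene. Capitals mark a pair of p53-family core elements (CNNG, then NNNNNN, then CNNG, which reads the same on both strands) at positions -97 to -84 from the start.
Krt5: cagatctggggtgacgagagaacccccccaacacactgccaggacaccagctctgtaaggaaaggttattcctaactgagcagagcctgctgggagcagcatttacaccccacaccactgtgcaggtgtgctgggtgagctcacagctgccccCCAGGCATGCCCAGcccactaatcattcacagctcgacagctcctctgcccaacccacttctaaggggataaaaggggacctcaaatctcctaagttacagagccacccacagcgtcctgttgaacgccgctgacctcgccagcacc
The same letters occur in 70.2% of 32851 promoters of this length, and in 4 of the 8 promoters found for the 10 genes, those of Krt5, Cldn3, Cldn4 and Cd80. The match describes the sequence and is not evidence of a bound site.

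Krt14 encodes keratin 14, the type I partner of keratin 5. Its probe (A_51_P506417, NM_016958) is placed at chr11:100019459-100020064 of mm8, minus strand, a span of 606 bases where most probes of these genes span 60. Before normalisation, array 2 read 47.8 units above local background in the transgenic pool, against 53.7 units in the control pool. The normalised level was 118 and 112 units in the transgenic pool on arrays 1 and 2, against 87.5 and 95.1 units in the control pool. The pools did not overlap, though the distance was smaller than for Krt5. The log2 ratio was 0.43 and 0.23, a mean of 0.33 ± 0.14. The software's log ratios were 0.89 ± 0.24 and 0.50 ± 0.23.

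Krt15 encodes keratin 15, another type I keratin of basal cells, and its probe (A_51_P482128, chr11:99948116-99948175, minus strand) lies 71.3 kb from that of Krt14. It read 43.7 and 41.0 units in the transgenic pool, against 46.8 and 37.2 units in the control pool, over local backgrounds of 33.0 to 34.5 units. The green reading was the higher one on both arrays, and neither pool was well above background. A difference in Krt15 was not detectable at this signal.

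Trp63 had 3 probes, and they did not read alike. The probe A_51_P216550 (NM_011641, chr16:25807275-25807334, plus strand) was well above background in all 4 channels. Before normalisation, array 2 read 84.9 units above local background in the transgenic pool, against 98.3 units in the control pool. The normalised level was 185 and 166 units in the transgenic pool, against 111 and 130 units in the control pool, with no overlap. The log2 ratio was 0.73 on array 1 and 0.35 on array 2, a mean of 0.54 ± 0.27, the widest spread among the measured genes here. The other 2 probes (A_52_P17264 on the same transcript and A_52_P338796 on the cDNA clone AK048623) lie 26.6 and 24.3 kb before it on the plus strand. They read 36.0 to 43.4 units in the transgenic pool, against 39.3 to 45.2 units in the control pool, and were well above background in 0 of 4 channels. Which transcript forms of the gene each probe reads was not given in the files, and the ratio rests on a single probe.

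**Figure D2:**
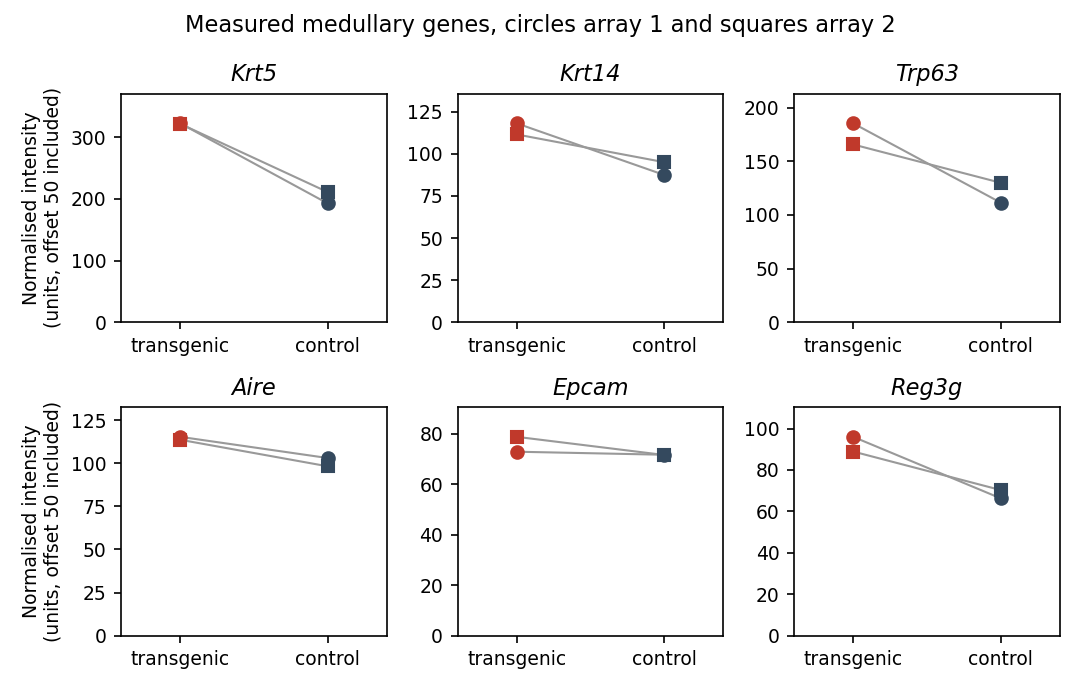
Normalised intensity in units, with the offset of 50 included, of the 6 measured genes in the transgenic pool (left, red) and the control pool (right, dark), with a line joining the pools on each array, circles for array 1 and squares for array 2. Krt5 shows the widest gap, at 323 and 322 against 193 and 211 units, and Epcam the narrowest, at 72.9 and 78.8 against 71.7 and 71.6 units.

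Aire, the transcriptional regulator of tissue-restricted antigens, was measured by A_51_P376127 (NM_009646, chr10:77433207-77433266 of mm8, minus strand). Before normalisation, array 2 read 48.9 units above local background in the transgenic pool, against 57.2 units in the control pool. The normalised level was 115 and 114 units in the transgenic pool, against 103 and 98.2 units in the control pool. The log2 ratio of 0.16 and 0.21, a mean of 0.19 ± 0.03, was small but close between the arrays. It exceeded 92.4% of tested genes. The software's log ratios were 0.35 ± 0.22 and 0.51 ± 0.23, so on array 1 the ratio was under 2 errors from 0.

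Reg3g encodes a secreted lectin known from the gut, where it acts against bacteria, and stands here for an antigen of another tissue. Its probe (A_51_P354126, NM_011260) lies at chr6:78395935-78395994, minus strand. Above local background it read 54.6 and 33.1 units in the transgenic pool, against 17.4 and 23.0 units in the control pool. The transgenic pool was thus higher in both dye arrangements, even before normalisation. The normalised level was 96.0 and 88.9 units in the transgenic pool, against 66.3 and 70.3 units in the control pool. The log2 ratio was 0.53 and 0.34, a mean of 0.44 ± 0.14. Because the signals are close to the added offset of 50 units, the ratio is compressed. With an offset of 0 it was 1.58 and 0.97, and in the software's log ratios 2.06 ± 0.36 and 1.12 ± 0.31, the highest of the 6 measured genes in both. On array 1 the control channel was not well above background.

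The promoters of Aire and Reg3g are shown beside each other because both carry a TATA box (TATAAA, capitals) just before the start, which 13.6% of promoters hold on either strand within these 300 bases. By that wider measure Cd80 holds it too, after the start and on the opposite strand. They lie at chr10:78043561-78043860 and chr6:78468825-78469124 of GRCm38.p6, both on the minus strand, and the box is at -29 to -24 in Aire and at -27 to -22 in Reg3g. A further match in Reg3g, on the opposite strand at -161 to -156, is capitalised as TTTATA.
Aire: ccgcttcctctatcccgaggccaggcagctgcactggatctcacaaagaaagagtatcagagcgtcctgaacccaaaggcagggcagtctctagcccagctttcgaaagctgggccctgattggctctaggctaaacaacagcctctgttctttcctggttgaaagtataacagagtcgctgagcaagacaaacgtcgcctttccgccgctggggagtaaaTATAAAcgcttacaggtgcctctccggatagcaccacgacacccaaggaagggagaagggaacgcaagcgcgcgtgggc
Reg3g: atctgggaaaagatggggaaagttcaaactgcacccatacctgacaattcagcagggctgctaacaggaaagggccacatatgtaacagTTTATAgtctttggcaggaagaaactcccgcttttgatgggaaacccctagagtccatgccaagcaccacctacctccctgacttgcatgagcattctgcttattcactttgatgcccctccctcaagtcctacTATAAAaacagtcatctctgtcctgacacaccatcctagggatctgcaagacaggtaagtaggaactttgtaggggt
Of the other motifs searched on both strands, the Sp1 box GGGCGG was in the promoters of Cldn3, Cldn4 and Epcam (35.7% of all promoters). The AP-1 site TGANTCA was in those of Cldn4 and Cd80 (7.81%), the AP-2 site GCCNNNGGC in that of Cldn3 (16.6%), where it overlapped a p53-family core pair, and the NF-kB site GGGANN followed by TTCC in that of Krt14 (1.47%). The window given for Krt14 starts inside the outermost bounds of the gene in RefSeq, so it may not cover the promoter of every transcript. Krt15 and Trp63 were not among the 8 genes matched to a promoter.

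Epcam encodes an adhesion molecule found on thymic epithelium of both cortex and medulla. Its probe (A_52_P447944, NM_008532, chr17:87557958-87558786, plus strand) gave a level of 72.9 and 78.8 units in the transgenic pool, against 71.7 and 71.6 units in the control pool. The log2 ratio was 0.03 and 0.14, a mean of 0.08 ± 0.08, above 75.8% of tested genes. The software gave 0.12 ± 0.34 and 0.44 ± 0.33, the first well within its error of 0. On array 1 the control channel was not well above background, as for Reg3g. Both genes passed the filter on dim probes through the transgenic pool alone, in which they read higher.

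Cldn3 and Cldn4 encode claudins, tight junction proteins that mark cells of the Aire-expressing lineage. Their probes lie 41.8 kb apart on chromosome 5 of mm8, A_51_P157902 at chr5:135271936-135271995 and A_51_P356467 at chr5:135230104-135230163. The Cldn3 probe read 53.2 and 48.6 units in the transgenic pool, against 51.8 and 40.9 units in the control pool. For Cldn4 the readings were 44.9 and 45.2 units in the transgenic pool, against 50 and 40.0 units in the control pool. Local backgrounds were 33.0 to 36.0 units, and neither probe separated the pools from background.

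Cd80 encodes the costimulatory ligand that mature medullary cells and antigen-presenting cells offer to CD28 on T cells. Its probe (A_52_P244005, NM_009855, chr16:38393393-38393452, plus strand) read 41.3 and 47.3 units in the transgenic pool, against 47.9 and 42.5 units in the control pool. In each pool the green reading was the higher one, over local backgrounds of 36.0 to 37.0 units. A second probe (A_51_P418295) names Cd80 only in its description and was also well above background in 0 of 4 channels.

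Placed in order, the mean log2 ratios ran from Krt5 (0.68) through Trp63 (0.54), Reg3g (0.44), Krt14 (0.33) and Aire (0.19) to Epcam (0.08). The order was the same on each array. The ranges over the arrays overlapped between Krt5 and Trp63, between Trp63 and Reg3g and between Reg3g and Krt14. Those of Krt14 and Aire and of Aire and Epcam did not overlap. Both genes of a pair were read on the same arrays, and these ranges leave that pairing out. On array 1 Reg3g stood at 0.53, Krt14 at 0.43 and Aire at 0.16. On array 2 they stood at 0.34, 0.23 and 0.21. With an offset of 0 the order began with Reg3g (1.27), followed by Krt5 (0.86), Trp63 (0.85), Krt14 (0.67), Aire (0.36) and Epcam (0.26). The median of the 6 measured genes was 0.38 ± 0.14, against -0.0023 over all 9397 tested genes. With no filter on dim probes, which adds the 4 unmeasured genes, it was 0.15. The transgenic levels of each of the 6 lay above the control levels without overlap, as in 23.0% of all tested genes, while the reverse held for 0 of the 6 and for 24.0% of all. Ratios above 0 on both arrays were found for these 6 and for 28.3% of tested genes, ratios below 0 on both for 0 of the 6 and 29.1% of tested genes, and means above 0 for 49.3% of tested genes. Because Epcam and Reg3g passed the filter through the transgenic pool, the median and these counts are given as a description only. Apart from the unfiltered median, the 4 unmeasured genes have no part in these values.

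**Figure D3:**
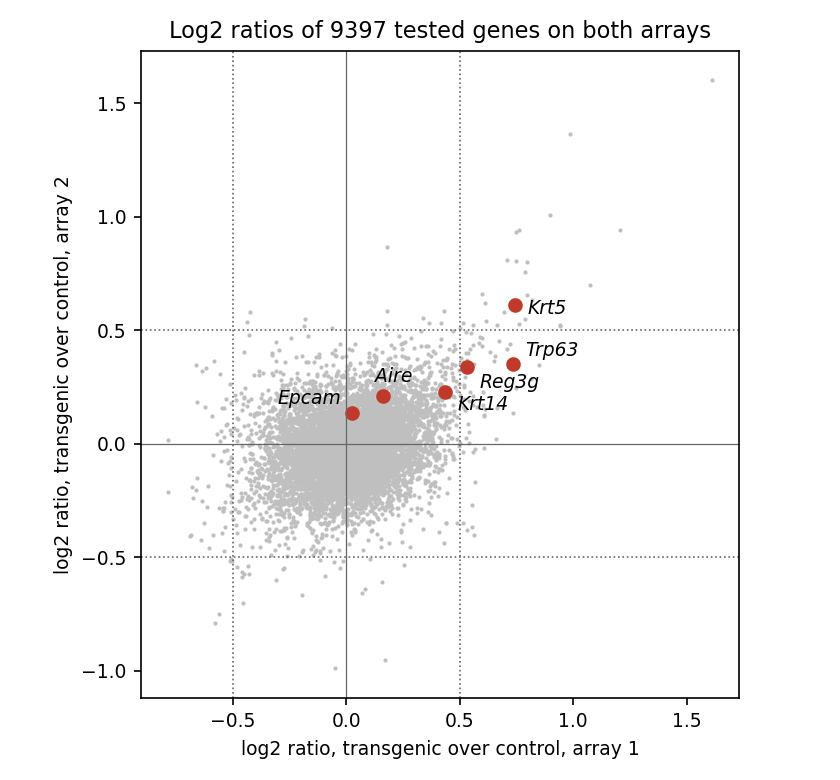
Log2 ratio of transgenic over control on array 1 (x axis) against array 2 (y axis) for 9397 tested genes (grey) and the 6 measured medullary genes (red, named), with dotted lines at 0.5 in size. Krt5 lies past 0.5 on both arrays, Trp63 and Reg3g on array 1 only, and Aire and Epcam within the grey cloud.

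How far the arrays agreed depended on the dye correction. With loess, the ratios of the 2 arrays correlated across genes at 0.311, where genes are not independent replicates. With each array centred on its median in its place, the correlation was -0.454. The log2 ratios on array 2 were then -0.01 for Krt5, -0.07 for Krt14, -0.10 for Trp63 and -0.10 for Aire, while those on array 1 were 1.25, 0.69, 1.11 and 0.45. Reg3g and Epcam kept a value above 0 on both arrays, at 0.69 and 0.18 for Reg3g and at 0.13 and 0.01 for Epcam. The means over the arrays moved little, with Krt5 at 0.62. A dye effect common to both arrays cancels in such a mean by construction, and whether it accounts for the small change was not tested.

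**Figure D4:**
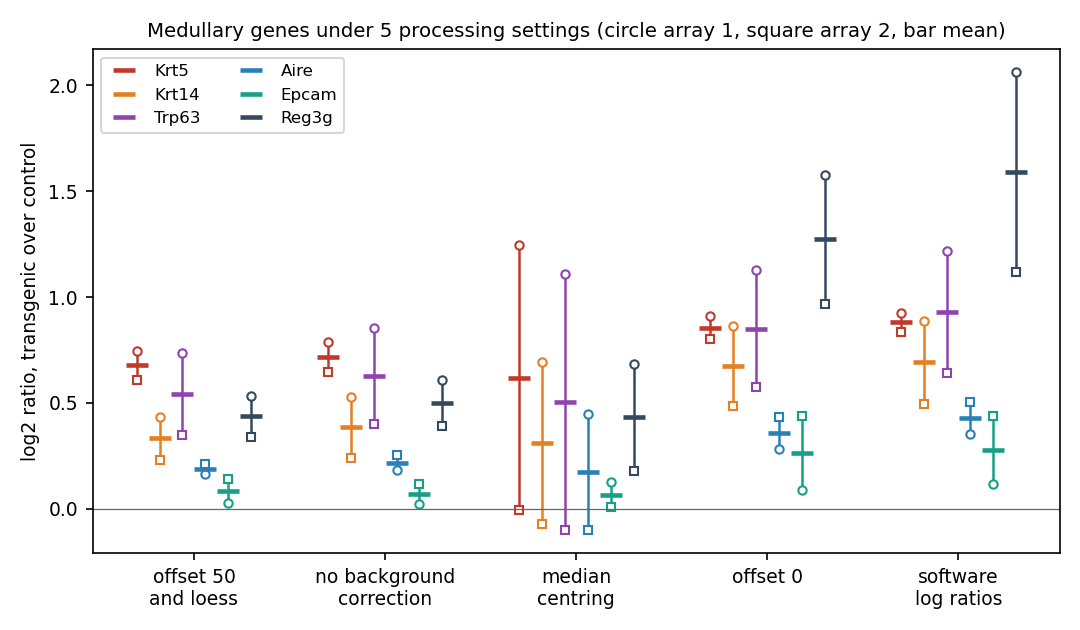
Log2 ratio of transgenic over control (y axis) of each measured gene under different background and normalisation settings (x axis), with a circle for array 1, a square for array 2 and a bar for the mean. Mean ratios lie above 0 in every setting drawn, Reg3g has a mean of 1.27 with an offset of 0, and median centring spreads the arrays of Krt5 between 1.25 and -0.01.

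Other genes of the medulla and of epithelium were taken from lists, and they are described here by counts and medians. Of 10 other medullary markers, 6 were tested, 4 of them above 0 on both arrays, with a median of 0.27, which was 0.11 without array 1. Ccl21a, a chemokine gene of medullary epithelium whose close copies can share the probe, was the only one at least 0.5 higher on each array, at 0.95 ± 0.08. Of 18 TNF receptor and NF-kB genes that direct medullary development, 10 were tested and none reached 0.5 in size on each array. Their median was 0.04, from Traf2, a receptor adaptor, at -0.15 ± 0.04 to Relb, a subunit of the alternative NF-kB pathway, at 0.15 ± 0.11. The receptor gene Tnfrsf11a and its ligand gene Tnfsf11 did not pass the filter on dim probes.

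Of 15 other epithelial keratins 7 were tested, with a median of 0.16 and none at 0.5 on each array. They ran from Krt13 at -0.02 ± 0.21 to Krt18, a keratin of simple and cortical epithelium, at 0.21 ± 0.08. Each of these 7 means lay below that of Krt14, as did each value on array 1. On array 2, Krt8 (0.39), Krt18 (0.27) and Krt7 (0.26) lay above Krt14 (0.23). Junction and anchorage genes gave 10 of 22 tested, a median of 0.12 (0.18 without array 2) and none at 0.5 on each array, the highest being the E-cadherin gene Cdh1 at 0.38 ± 0.01 and the lowest Tjp3 at -0.09 ± 0.02. Of 13 epithelial transcription factors 4 were tested, between Trp73, a relative of Trp63, at -0.10 ± 0.05 and Pax1 at 0.15 ± 0.20. Of 18 tissue-restricted antigens 17 had a probe and 0 passed the filter, so Reg3g could be set beside no other antigen. Of 11 costimulatory genes 4 were tested, from Pdcd1 at -0.28 ± 0.09 to Icos at 0.24 ± 0.16. Of 13 genes of cornified and tuft-like medullary cells 1 passed, the skin barrier gene Sbsn at 0.13 ± 0.11.

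**Figure D5:**
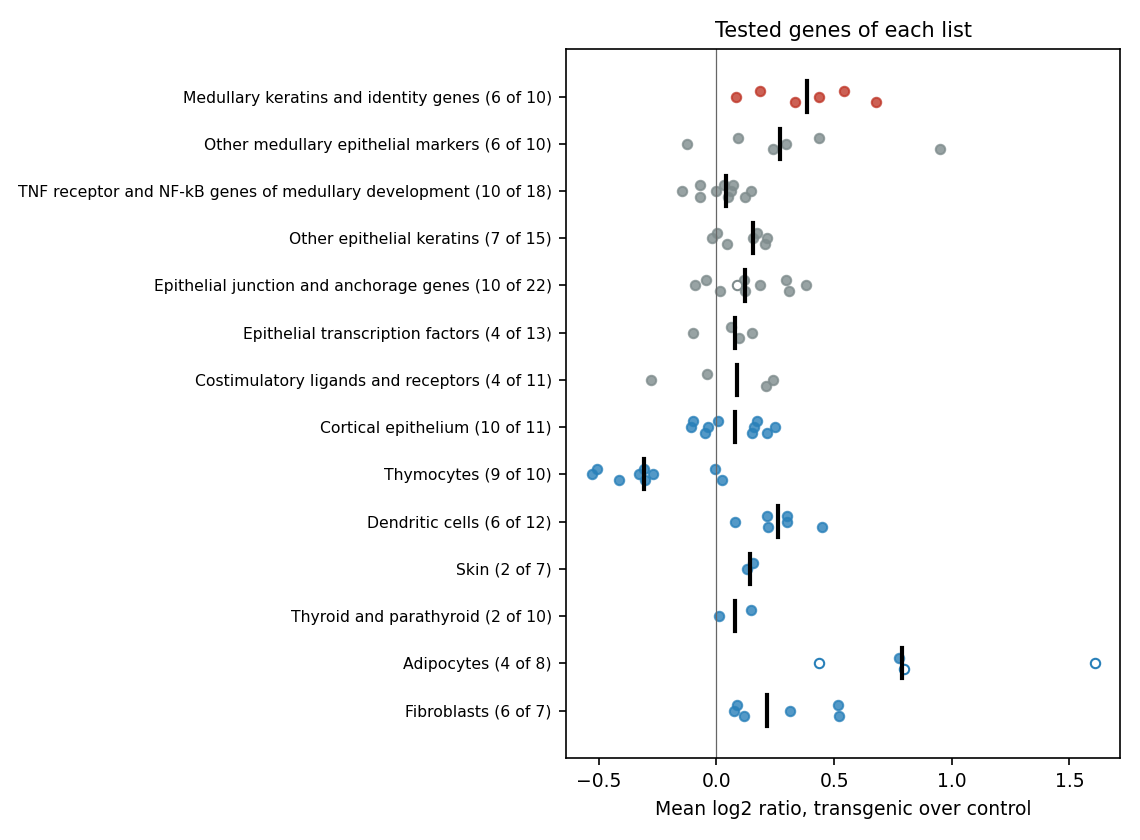
Mean log2 ratio of transgenic over control for the tested genes of each list with at least 2 of them (points) and their median (black bar), with the number tested of the number listed. Open points are genes not well above background in one genotype on both arrays. The medullary keratins and identity genes (red) have a median of 0.38, other medullary markers 0.27 and thymocyte markers -0.31. The highest median drawn is that of the adipocyte markers, 0.79, whose points for Cfd, Cidec and Car3 are open because the control pool was too dim. These genes passed the filter through the transgenic pool alone, in which they read higher, so this median is a description only. With no filter on dim probes it was 0.41.

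Markers of other cell types differed between the pools as well, and their part in the ratios above was not tested. In bulk RNA, fewer cells of a type and less RNA per cell cannot be told apart. Of 9 tested thymocyte markers 1 passed the mark, Cd8a, a co-receptor chain, at least 0.5 lower on each array at a mean of -0.51, while its 3 probes ran from -0.56 to -0.19. In all, 7 of the 9 lay below 0 on both arrays, against 29.1% of tested genes, and their median was -0.31. Their summed level was 20358 and 20322 units in the transgenic pool, against 26286 and 26560 units in the control pool. Summed levels here and below weigh the brightest genes most, such as Ctsl, Ccl25 and Krt18 among the cortical epithelial markers. Cortical epithelial markers had 10 of 11 tested, a median of 0.08 (0.13 without array 1 and 0.04 without array 2), and a summed level of 22988 and 23350 units in the transgenic pool, against 21968 and 20179 units in the control pool. They ran from Tbata at -0.11 ± 0.04, whose other tested probe read 0.27, to Ly75 at 0.25 ± 0.11. Dendritic cell markers had 6 of 12 tested, all 6 above 0 on both arrays, against 28.3% of tested genes. Among them Xcr1 passed the filter through the transgenic pool alone, in which it read higher, so this count is a description only. The median of the dendritic cell markers, 0.26, was 0.40 without array 1, 0.17 without array 2 and 0.07 with no filter on dim probes. They summed to 2292 and 2483 units in the transgenic pool, against 2052 and 1895 units in the control pool, and Itgax, Flt3 and Zbtb46 were not measurable. Adipocyte markers had 4 of 8 tested, of which Cfd, Cidec and Car3 were too dim in the control pool for a ratio, and Fabp4, a fatty acid binding protein gene, stood at 0.78 ± 0.04. They summed to 1553 and 1495 units in the transgenic pool, against 877 and 824 units in the control pool, while Adipoq, Plin1, Lep and Retn were not measurable. Because Cfd, Cidec and Car3 passed the filter through the transgenic pool alone, in which they read higher, this sum is a description only. Fibroblast markers had 6 of 7 tested, a median of 0.22 (0.13 without array 1 and 0.34 without array 2), and 1218 and 1119 units in the transgenic pool, against 936 and 964 units in the control pool, from Col1a1 at 0.07 ± 0.27 to Mgp at 0.52 ± 0.19.

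Basal keratins are also made by skin, and glands lie next to the thymus. Of 7 skin markers the defining genes Krt1, Krt2, Lor, Flg and Krtdap did not pass the filter, and the tested ones were Krt10 at 0.16 ± 0.13 and Sbsn at 0.13 ± 0.11. The skin markers summed to 236 and 217 units in the transgenic pool, against 202 and 208 units in the control pool. Of 10 thyroid and parathyroid markers 2 were tested, and Tg and Gcm2 were among those that did not pass. Pth stood at 0.01 ± 0.19 and Calca at 0.15 ± 0.01, with a summed level of 207 and 193 units in the transgenic pool, against 187 and 195 units in the control pool. Of 8 B cell markers only Cd79b passed, at 0.13 ± 0.04.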

How the data were processed

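Each array held 41534 transcript spots and 2256 control spots, read by the scanner software Feature Extraction (version 9.5.1.1 in the file headers). The deposited files hold the mean and local background intensity of every spot, uncorrected and linear. They also hold a processed intensity, for which the file headers record spatial detrending, surrogates and a dye normalization with LOWESS settings. The deposited LogRatio column gives the log10 ratio, red over green, and the authors' deposited series table holds log10 red over green of the processed signals within 5e-10, so it is uncentred and keeps each array's dye direction. Probes are placed on mm8, per the file headers, and exons or UTRs under them were not looked up.

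Mean signals were corrected by normexp (offset 50) and normalized by loess within arrays (limma 3.58.1, R 4.3.3), with control and outlier spots at weight 0. Array 2 was turned so that ratios read transgenic over control. Levels were scaled between arrays by Aquantile. A probe entered where either genotype was flagged well above background on each array (12235 of 41174), and the brightest probe stood for a gene (9397 genes, 8403 with a symbol of RefSeq's GRCm38.p6 table). Probe names came from the accession for 23374, from the symbol for 6733, from a synonym for 2919 and from the array itself for 8148. A gene was called at 0.5 or more on each array, or 2-fold at a mean of 1 or more with 0.5 on each array. The dye contrast, computed on the ratios after loess, gave 0 calls in either direction and does not measure the dye effect before loess. Procedures were tested on simulated dye-swapped arrays. The changes planted there were log2 ratios of 1 and 2 in size, and the simulated dye effect did not vary with intensity. The simulation therefore does not cover smaller ratios, such as those of the measured genes, or a dye effect that varies with intensity. Genes named were the 10, and per list the called genes or otherwise the highest and lowest; any others were picked with values in view. The 10 genes and the lists were chosen with earlier results of these data known. The 2 arrays and their signal over background limit the precision. Promoter sequences came from RefSeq, GRCm38.p6.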

Additional observations from a re-analysis of the deposited data

How the results depend on the processing

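The means of the 6 measured genes over the arrays stayed above 0 under the alternatives run, some of which cannot move them, since each has 1 tested probe and the series table repeats the scanner's ratios. With median centring, array 2 alone lay below 0 for Krt5, Krt14, Trp63 and Aire. Krt5 ran from 0.61 to 0.88, Trp63 from 0.35 to 0.93, Krt14 from 0.23 to 0.69, Reg3g from 0.34 to 1.59, Aire from 0.16 to 0.43 and Epcam from 0.03 to 0.28. The number of the 10 genes at least 0.5 higher on each array was 1 in the setting reported, 3 with an offset of 0, 3 in the scanner's own ratios (equal to the series table), and 0 with median centring; leaving out 1 array gave 1 to 3, the higher number without array 2. At least 2-fold different were 0 as reported, and 1, Reg3g, without the offset or in the scanner's own ratios. The median of the measured genes, 0.38, was 0.76 with an offset of 0, 0.79 in the scanner's own ratios, and 0.15 with no filter on dim probes, where the 4 unmeasured genes enter; leaving out 1 array gave 0.28 to 0.48. Over all genes, 27 higher and 5 lower at 0.5 on each array became 128 and 42 with an offset of 0, 181 and 72 in the scanner's own ratios, 3 and 0 with median centring, 23 and 3 with the mean of a gene's probes, 39 and 28 on array 2 alone and 89 and 65 on array 1 alone. At 2-fold, 3 higher and 0 lower became 26 and 1 with an offset of 0, 33 and 5 in the scanner's own ratios, and 1 and 0 with median centring. List medians kept their sign; 84 values moved by less than the SD between arrays and 51 by more. With no filter on dim probes they were 0.17 for other medullary markers, 0.03 for other keratins, 0.05 for junction genes, 0.01 for epithelial transcription factors, 0.015 for cortical epithelium and 0.12 for fibroblasts. The offset shrinks ratios of dim probes by construction; for the other changes the cause was not tested. No paired analysis was possible beyond the pairing within each array, which the ratios already use, because the labels give no other link between samples. Low signal leaves Krt15, Cldn3, Cldn4 and Cd80 without a ratio, and 1 pool per genotype leaves every difference without a check across animals.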
